A study of Mus musculus with 6 samples.

Results

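The 42 genes described here act in mitosis, the stage of the cell cycle in which duplicated chromosomes are separated and the cell divides. They were listed by name for their function, with earlier results of these data known but no threshold on a measured value, out of 32285 genes in the count table. By role they comprised 10 regulators of entry into and exit from mitosis, 2 genes of chromosome structure and proliferation, 11 genes of the centromere, kinetochore and spindle checkpoint, 4 genes of the chromosomal passenger complex, 8 genes of spindle assembly, 5 genes of the central spindle and cytokinesis, and 2 other members. Their transcripts were counted by droplet-based single-cell RNA-seq in striatal cells sorted on magnetic columns for ACSA2, an antigen found on the surface of astrocytes. The mice were untreated wild-type C57BL/6 males, with 3 libraries from postnatal day 3 (P3), when striatal astrocytes are immature, and 3 from 3 months of age (3m). Each preparation pooled several animals and the subventricular zone, a site of adult neurogenesis, was excluded from the dissection. The question put to the data was in which cells and at which age the mitotic programme was expressed.

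The table held unique molecular identifiers (UMIs), each counting 1 captured transcript once, for 16690 barcodes. The authors annotated 14373 of them in 24 clusters, and re-clustered the 9992 astroglial cells (8874 at P3 and 1118 at 3m) in 17 sub-clusters numbered from 0. Cluster names give a cell class, for some an age, and a number. GPC stands for glial progenitor cells, AST for astrocytes, PER for pericytes, END for endothelial cells, and MIC for microglia. OPC stands for oligodendrocyte precursor cells, ODC for oligodendrocytes, NEU for neuronal lineage cells, and LOW for cells left unidentified. Levels are given as CPM, the UMIs of a gene per 1000000 UMIs in the same cells of the same library, with the SD over 3 libraries. Total UMIs ranged from 32193875 to 37795021 per P3 library and from 5471573 to 10522151 per 3m library. Barcodes with 10% or more mitochondrial UMIs made up 50.6%, 18.3% and 23.1% of 3m replicates 1, 2 and 3, against 0.573% to 2.19% of the P3 libraries, so the share moved with age, and its part in the differences between the ages was not tested beyond the alternatives given. Of the barcodes, 37 occurred in more than 1 library, 15 of them at both ages, and those at 3m held 3 of the 1046 UMIs of members other than *Pttg1* at that age. GPC_8 and GPC_9 expressed the 5 astroglial markers, at 2012 and 2188 CPM in sum, and almost no microglial or endothelial ones (0.0959 to 3.84 CPM).

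Cells enter mitosis when the kinase Cdk1 is bound by A and B type cyclins, and they leave it when the anaphase-promoting complex, activated by Cdc20, marks cyclin B and securin for destruction. In between, kinetochores built on centromeres attach chromosomes to the spindle under the control of a checkpoint, and the chromosomal passenger complex corrects faulty attachments and then moves to the central spindle. Most of these genes are transcribed only from late S phase to mitosis, through promoters that carry a CCAAT box and a short element called the cell cycle genes homology region (CHR).

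Promoter sequences were examined because most members are low outside dividing cells while a few are not, and because members differed in their balance between the progenitor clusters. RefSeq windows of 300 bases (build GRCm38.p6, 250 bases before the transcription start to 50 after it) were at hand for 34 of the 42 members, as 36 windows, since *Prc1* and *Ect2* had 2 each. The motifs searched on both strands were the CHR in its forms TTTGAA and TTTAAA, and CCAAT. The form TTTGAA was found in 27 of the 36 windows (75%), against 17.9% of all 32851 windows, and TTTAAA in 10 (27.8%), against 13.2%. CCAAT was found in 28 windows (77.8%), against 37.4%. Either form of the CHR together with CCAAT was found in 27 windows (75%), against 10.7%, and none of the 3 motifs in 13.9% of the members' windows, against 45.7%. The members without any of them were *Knstrn*, *Pttg1*, *Nuf2*, *Nusap1* and *Mad2l1*. A match to these letters is a description of the sequence and not a binding site, and a window without one says nothing about the factors.

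The windows of the 3 members with the highest balance toward GPC_9, of the 3 with a window and the lowest, and of *Pttg1* and *Nuf2*, the members that differed least between the ages, are printed below 5′ to 3′ with the motifs in capitals (on either strand).
Cenpa: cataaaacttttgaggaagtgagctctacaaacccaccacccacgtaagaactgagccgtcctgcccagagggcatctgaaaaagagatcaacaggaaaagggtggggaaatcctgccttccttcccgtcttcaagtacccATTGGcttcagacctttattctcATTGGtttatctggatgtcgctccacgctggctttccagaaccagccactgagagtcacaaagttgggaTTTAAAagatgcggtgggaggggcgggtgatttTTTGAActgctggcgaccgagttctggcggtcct
Cdc20: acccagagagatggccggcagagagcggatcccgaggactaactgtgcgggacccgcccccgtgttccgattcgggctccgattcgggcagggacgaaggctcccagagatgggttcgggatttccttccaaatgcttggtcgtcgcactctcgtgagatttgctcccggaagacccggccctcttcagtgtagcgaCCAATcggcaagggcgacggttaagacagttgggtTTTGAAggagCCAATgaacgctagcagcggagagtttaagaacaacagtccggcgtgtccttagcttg
Ccnb2: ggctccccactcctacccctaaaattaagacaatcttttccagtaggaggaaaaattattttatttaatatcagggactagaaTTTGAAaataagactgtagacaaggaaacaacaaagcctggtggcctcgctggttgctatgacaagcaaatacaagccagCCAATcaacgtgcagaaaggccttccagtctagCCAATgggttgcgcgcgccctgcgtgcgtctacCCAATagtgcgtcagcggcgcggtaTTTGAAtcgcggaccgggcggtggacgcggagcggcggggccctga
Ndc80: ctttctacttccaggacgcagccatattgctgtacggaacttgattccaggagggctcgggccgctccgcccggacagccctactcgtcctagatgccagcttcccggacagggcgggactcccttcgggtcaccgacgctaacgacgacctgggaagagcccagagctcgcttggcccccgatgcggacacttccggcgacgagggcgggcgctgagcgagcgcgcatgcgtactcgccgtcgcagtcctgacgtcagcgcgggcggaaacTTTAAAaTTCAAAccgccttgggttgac
Top2a: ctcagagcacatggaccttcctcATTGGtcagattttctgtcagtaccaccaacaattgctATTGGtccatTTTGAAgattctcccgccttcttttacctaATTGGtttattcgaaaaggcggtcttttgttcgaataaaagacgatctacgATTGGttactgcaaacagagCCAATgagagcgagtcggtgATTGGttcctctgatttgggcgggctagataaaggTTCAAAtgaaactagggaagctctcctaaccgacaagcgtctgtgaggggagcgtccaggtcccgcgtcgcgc
Ttk: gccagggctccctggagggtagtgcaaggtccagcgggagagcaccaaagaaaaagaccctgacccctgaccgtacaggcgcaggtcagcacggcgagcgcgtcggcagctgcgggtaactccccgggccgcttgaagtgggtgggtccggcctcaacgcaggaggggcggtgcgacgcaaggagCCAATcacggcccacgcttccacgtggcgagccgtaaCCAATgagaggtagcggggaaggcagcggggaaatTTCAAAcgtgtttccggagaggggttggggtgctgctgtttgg
Pttg1: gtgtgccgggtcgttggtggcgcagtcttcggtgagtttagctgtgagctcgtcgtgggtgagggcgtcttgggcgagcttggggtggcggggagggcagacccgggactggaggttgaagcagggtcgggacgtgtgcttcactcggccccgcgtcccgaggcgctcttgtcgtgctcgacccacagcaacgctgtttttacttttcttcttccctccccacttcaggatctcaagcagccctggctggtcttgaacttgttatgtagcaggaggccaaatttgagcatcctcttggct
Nuf2: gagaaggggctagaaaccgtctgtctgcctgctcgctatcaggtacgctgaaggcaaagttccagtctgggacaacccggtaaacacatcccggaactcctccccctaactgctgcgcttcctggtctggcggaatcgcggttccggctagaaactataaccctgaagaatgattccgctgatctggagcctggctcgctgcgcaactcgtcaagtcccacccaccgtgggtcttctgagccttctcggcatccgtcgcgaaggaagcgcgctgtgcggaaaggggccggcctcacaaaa
The *Cenpa* window, on the forward strand at chr5:30666636-30666935, held 2 CCAAT boxes and both forms of the CHR. Those of *Cdc20* (chr4:118437294-118437593, reverse strand) and *Ccnb2* (chr9:70421505-70421804, reverse strand) had 2 and 3 CCAAT boxes. The *Ndc80* window (chr17:71526808-71527107, reverse strand) held both CHR forms and no CCAAT box. *Top2a* (chr11:99024140-99024439, reverse strand) had 6 CCAAT boxes, and *Ttk* (chr9:83834439-83834738, forward strand) had 2. The windows of *Pttg1* (chr11:43425932-43426231, reverse strand) and *Nuf2* (chr1:169531415-169531714, reverse strand) held none of the motifs. In the GENCODE annotation *Pttg1* starts at chr11:43426251 on the reverse strand. Its window therefore lay within that gene and held no sequence upstream of that start, which was not examined. Each of the 6 windows chosen by the balance between the clusters, from either end of the order, held at least 1 form of the CHR.

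At P3 the mitosis genes were concentrated in the glial progenitor clusters. GPC_9 and GPC_8 held 37.0% and 32.7% of the members' 252419 UMIs, but 7.09% and 9.87% of the UMIs of all genes. The summed level of the 42 members in GPC_9 was 14127, 11172 and 12202 CPM in P3 replicates 1, 2 and 3, and in GPC_8 it was 8722, 7452 and 7944 CPM. GPC_9 exceeded GPC_8 in every library, by 1.62, 1.499 and 1.54 times. AST_P3_0, the most numerous P3 astrocyte cluster, had 214 ± 28.4 CPM, of which 117 ± 10.7 CPM was *Pttg1* alone. NEU_22, named by the authors as neuronal lineage cells, had 287 ± 157 CPM in few cells, and served as background. Its mean without *Pttg1* was 230 ± 187 CPM, above the 96.8 ± 18.5 CPM of AST_P3_0. NEU_22 also had astroglial markers at 516 CPM, and whether its cells divide was not tested. Clusters were formed with these genes among the input, so levels by cluster are a description and were not tested.

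**Figure D1:**
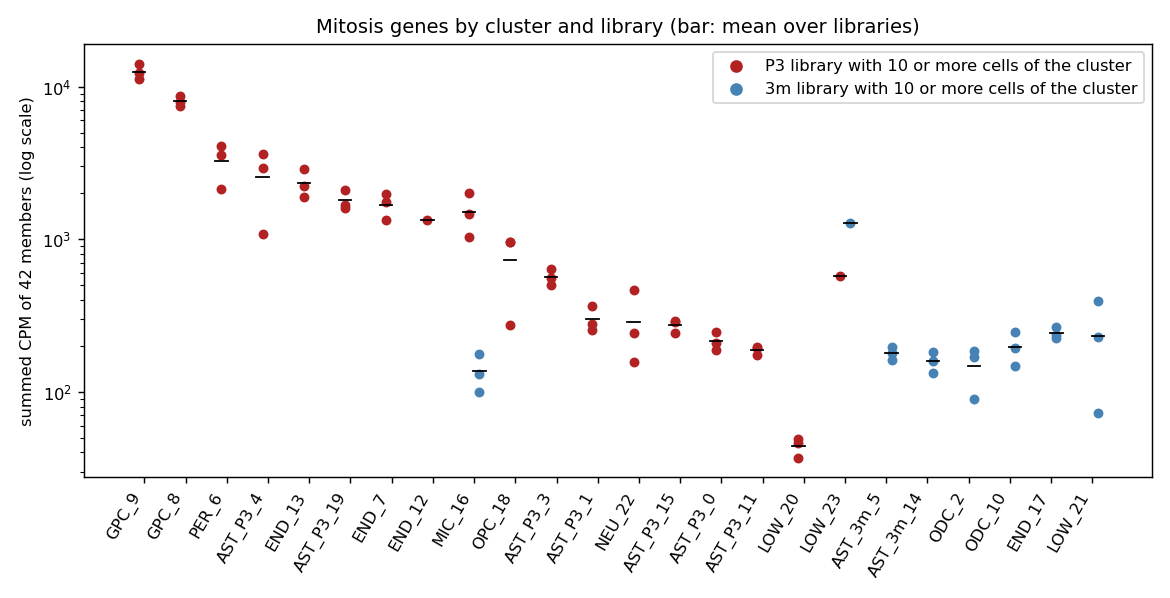
Summed CPM of the 42 members (log scale) in each cluster with at least 10 cells of a library, with a point per library, red for P3 and blue for 3m, and a bar at the mean. GPC_9 (12500.2 CPM on average) and GPC_8 (8039 CPM) stand highest, the P3 pericytes, P3 endothelial clusters and AST_P3_4 lie between 1088 and 4067 CPM, and the 3m astrocyte and oligodendrocyte clusters lie between 89.2 and 245 CPM.

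Between the progenitor clusters the members did not differ to the same extent. The ratio of CPM in GPC_9 to CPM in GPC_8 was above 1 in all 3 libraries for 35 members, below 1 in all 3 for 6, and mixed for *Bub1*, with a median of 1.49. Of 8218 genes with at least 10 CPM, 53.8% had a ratio above 1 and 0.779% a ratio above 2 with libraries pooled, and their median was 1.02. The share of all genes above 1 in all 3 libraries was not computed. Of the members, 9 had a ratio above 2. The order of the members was close to the same in each library (Spearman's rho of 0.929 to 0.956 between libraries, across 42 genes that are not independent).

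Among the 10 regulators of entry and exit, the highest ratio was that of *Cdc20*, the activator of the anaphase-promoting complex. It had 392, 244 and 216 CPM in GPC_9 and 108, 74.7 and 74.3 CPM in GPC_8, a ratio of 3.27 ± 0.35. *Ccnb2*, a B type cyclin, had 295, 342 and 417 CPM in GPC_9 and 92.0, 116 and 122 CPM in GPC_8, a ratio of 3.19 ± 0.23. *Ccnb1*, the other mitotic B type cyclin listed, had a ratio of 2.34 ± 0.27, *Cdca3*, which promotes entry into mitosis, one of 1.83 ± 0.24, *Ube2c*, the ubiquitin-conjugating enzyme of the anaphase-promoting complex, one of 1.79 ± 0.13, and *Pttg1*, which encodes securin, one of 1.70 ± 0.22. *Cdk1* itself, at 1.15 ± 0.11, and its earlier partner *Ccna2*, at 1.29 ± 0.09, had the lowest ratios of the 10 regulators, above 1 in each library. For all 10 regulators the ratio lay between 1.15 and 3.27.

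The genes of chromosome structure behaved differently. *Top2a*, the topoisomerase that untangles sister chromatids, had 834, 477 and 671 CPM in GPC_9 and 939, 676 and 811 CPM in GPC_8, and so was lower in GPC_9 in each library (ratio 0.81 ± 0.09). *Mki67*, which encodes the proliferation marker Ki-67, had a ratio of 1.03 ± 0.01.

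The widest spread was among the 11 genes of the centromere, kinetochore and checkpoint, from 0.670 to 3.35. *Cenpa*, the histone variant that marks centromeres, had the highest ratio of all 42 members, with 732, 738 and 745 CPM in GPC_9 against 219, 225 and 218 CPM in GPC_8. *Knstrn*, a kinetochore and spindle adaptor, followed with 2.85 ± 0.07, and *Cenpf*, a large kinetochore protein, with 2.28 ± 0.15. *Ndc80*, a subunit of the complex that binds microtubules at the kinetochore, had the opposite balance, with 55.1, 37.2 and 55.7 CPM in GPC_9 and 85.6, 62.1 and 72.5 CPM in GPC_8. *Nuf2*, its partner in that complex, had a ratio of 1.40 ± 0.12. *Ska1*, which helps kinetochores to follow microtubule ends, and *Ttk*, the kinase that starts the checkpoint, were also below 1 in each library, at 0.80 ± 0.09 and 0.84 ± 0.04.

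The chromosomal passenger complex was split. *Aurkb*, its kinase, had the lowest ratio of the 42 members, 0.64 ± 0.06, with 134, 91.4 and 102 CPM in GPC_9 and 190, 148 and 169 CPM in GPC_8. Its scaffold *Incenp* was at 0.82 ± 0.06, whereas its subunits *Birc5* and *Cdca8* were at 1.33 ± 0.11 and 1.55 ± 0.04. All 8 genes of spindle assembly had ratios above 1, from 1.32 for *Kif11*, the motor that separates spindle poles, to 2.61 for *Aspm*, which focuses spindle poles, and 2.60 for *Ckap2*, a microtubule-associated protein. The 5 genes of the central spindle and cytokinesis lay between 1.15 for *Kif23* and 1.76 for *Kif20a*, both motors of the central spindle. *Pimreg* and *Depdc1a* had ratios of 2.24 and 1.41.

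**Figure D2:**
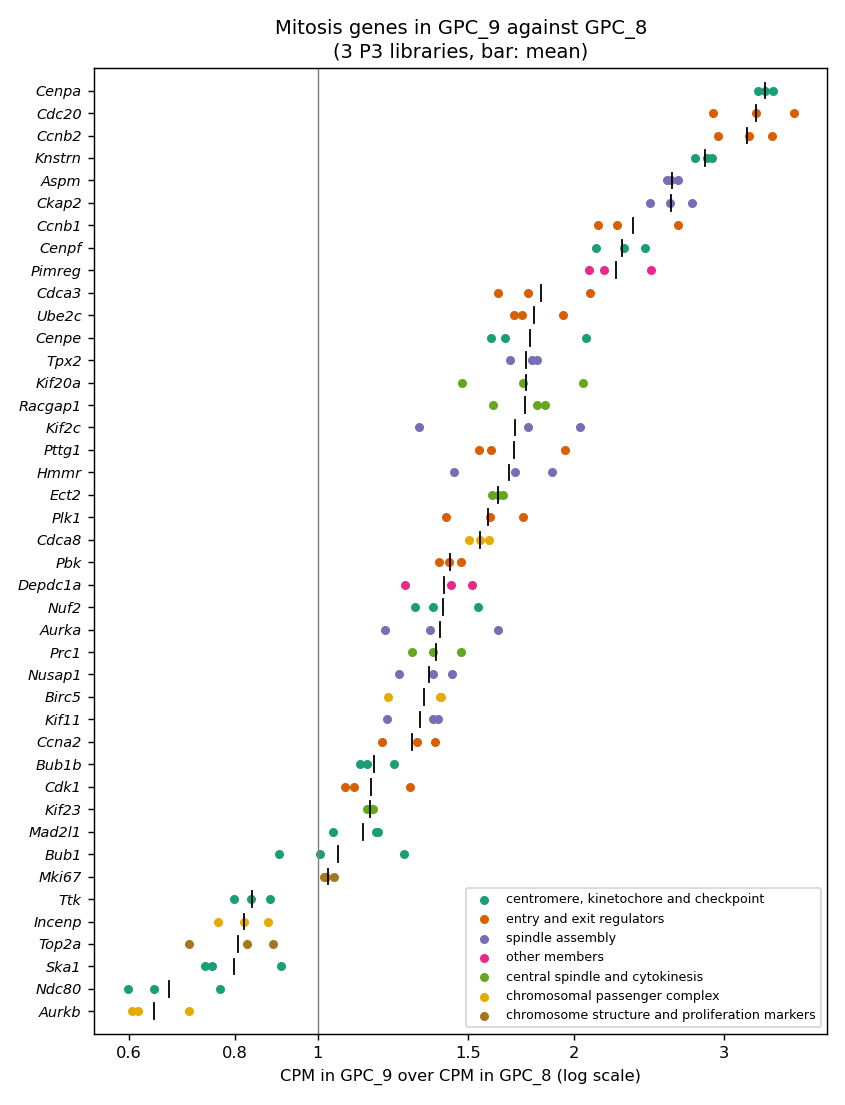
CPM in GPC_9 divided by CPM in GPC_8 (log scale) for each member, with a point per P3 library coloured by role and a bar at the mean of 3 libraries. The members run from Aurkb (0.642) to Cenpa (3.35), and the points of 6 members lie wholly below 1.

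Along the pseudotime that the authors fitted from proliferating sub-cluster 6 to mature astrocytes and divided in bins, the members rose within the progenitor clusters and fell from there on. The summed level of the members rose from 5230 ± 793 CPM in bin 3 through 7767, 11365 and 14704 CPM to 18023 ± 789 CPM in bin 7, and then fell through 13194, 9199 and 4388 CPM to 1413 CPM in bin 11 and 233 ± 36.0 CPM in bin 14, the last bin of P3 cells. Of the members, 28 had their highest mean level in bin 7 and 6 in bin 6, among them *Mki67*, *Ttk*, *Ndc80* and *Ska1*. *Aurkb* was highest in bin 5. Some of these highs were not apart from the next bin. *Mki67* had 557 ± 152 CPM in bin 6 and 553 ± 95.4 CPM in bin 7, and in replicate 2 it was highest in bin 7. *Aurkb* had 243 CPM in bin 5 and 241 CPM in bin 6, and in replicate 1 it was highest in bin 6. *Ccnb2*, *Cdca3*, *Kif20a* and *Pimreg* were highest in bin 8, and *Cenpa* and *Knstrn* in bin 9. *Cenpa* was highest in bin 9 in each of the 3 libraries, at 887 CPM on average. *Top2a* had already fallen there, from 1291 ± 128 CPM in bin 7 to 149 ± 32.8 CPM in bin 9. Bins 3 to 6 held GPC_8 cells alone and bin 8 GPC_9 cells alone (76 cells), so the order by bin and the ratio between the clusters draw on the same cells. The end of the fall lay mostly outside the progenitor clusters, since GPC_8 and GPC_9 made up 8.11% and 14.3% of the cells in bin 11 and 0.879% and 0.160% in bin 14.

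A list of 18 S phase genes, needed for DNA replication, had the reverse profile at first. It fell from 3953 ± 785 CPM in bin 3 to 1070 ± 107 CPM in bin 8, while the members rose and began to fall, and it had a second, lower high of 1950 ± 252 CPM in bin 11 before reaching 271 ± 21.5 CPM in bin 14. In GPC_8 the list had 3147 ± 420.2 CPM and in GPC_9 1103 ± 148 CPM. *Pttg1*, which encodes securin, the inhibitor of sister chromatid separation, was the exception among the members, since its mean level was highest in bin 13 (119.9 CPM) and it was 56.1 CPM in bin 3. Its level in bin 14 was nearly the same (119.8 CPM), and in replicates 1 and 2 it was highest there. The pseudotime was built from the same cells with these genes among the input, and nothing was tested along it.

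**Figure D3:**
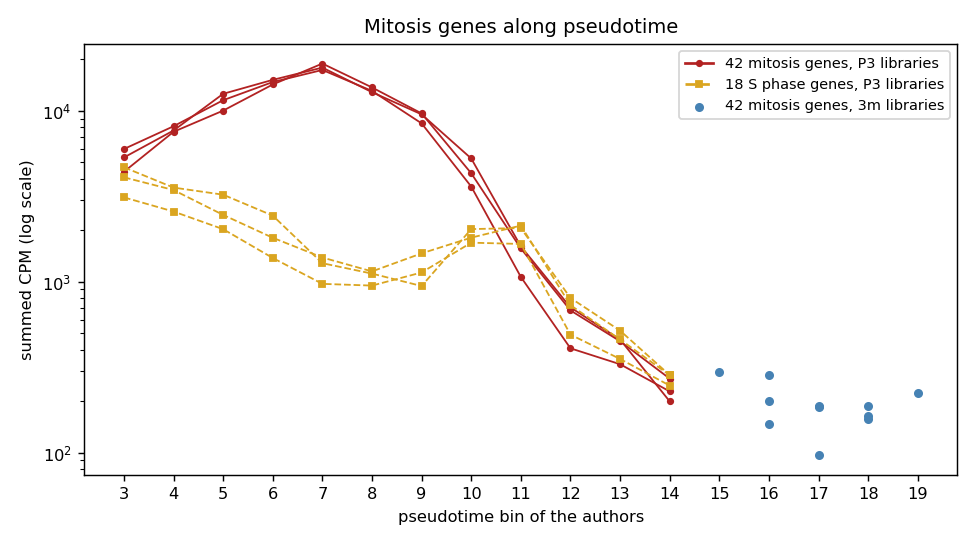
Summed CPM (log scale) against the authors' pseudotime bin, with a red line per P3 library for the 42 members, a dashed yellow line per P3 library for 18 S phase genes, and blue points for the members in 3m libraries (at least 10 cells of a library in each bin). The members peak in bin 7 (18023 CPM on average) in all 3 P3 libraries, when the S phase genes have fallen from 3953 to 1213 CPM, and the 3m points in bins 15 to 19 lie between 96.6 and 297 CPM.

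*Pttg1* and *Nuf2* were also the members least tied to the progenitor clusters. Of the P3 UMIs of *Pttg1*, 67.7% came from astroglial cells outside GPC_8 and GPC_9, against 9.30% over all members and 56.4% over all genes. For *Nuf2* the share was 25.4%, for *Pbk*, a mitotic kinase, 17.3% and for *Mad2l1*, a checkpoint protein, 15.4%. *Pttg1* had 117.1, 120.3 and 104 CPM in GPC_9 and 112, 129 and 110.1 CPM in AST_P3_0, so the libraries of these clusters overlapped, while GPC_8 had 60.04, 77.8 and 65.02 CPM.

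Cluster AST_P3_19, counted as astroglial by the authors, expressed 5 of 5 multiciliated cell markers at 2084 CPM in sum, beside astroglial markers at 1960.2 CPM, and it expressed only some of the mitosis genes. Multiciliated cells no longer divide, and are known to use parts of the mitotic machinery when they make many centrioles. The cluster had 96 cells, and a summed level of 1685, 1596 and 2094 CPM. Set against the level in GPC_9, *Pttg1* stood at 219% ± 13.8, *Nuf2* at 69.8% ± 22.03, *Top2a* at 42.7% ± 16.7, *Cdk1* at 39.7% ± 9.58, *Ect2*, the activator of RhoA in cytokinesis, at 36.1% ± 12.1 and *Cdc20* at 22.6% ± 4.37. Other members were nearly absent, with *Mki67* at 2.00% ± 0.780, *Ccna2* at 1.68% ± 1.602, *Nusap1*, a spindle protein, at 1.23% ± 1.06, *Hmmr*, another spindle protein, at 0.455% ± 0.788 and *Bub1b*, a checkpoint kinase, at 0. In all, 8 members were above 20%, 12 were under 5% and the median was 9.21%.

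The uneven pattern was present within single cells. Of 42 cells of AST_P3_19 with UMIs of at least 10 members, 36 lacked *Mki67* (85.7%, exact 95% interval 71.5 to 94.6), 38 lacked *Ccna2*, 41 lacked *Hmmr*, 3 lacked *Top2a* and 2 lacked *Cdk1*. Of 506 such cells in GPC_9, which were shallower, with a median of 12602 UMIs against 16058, 92 lacked *Mki67* (18.2%, 14.9 to 21.8), 91 lacked *Ccna2* and 156 lacked *Hmmr*. Intervals cover counting error only. In the cells of endothelial cluster END_7 and pericyte cluster PER_6 with at least 10 members, the share without *Mki67* was 13.6% and 12.9%. *Mki67* reached 21.6% of its GPC_9 level in AST_P3_4, 19.4% in END_7, 37.8% in PER_6, 25.3% in MIC_16 and 6.46% in OPC_18. These values are a description, since the cells were clustered on the same genes.

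**Figure D4:**
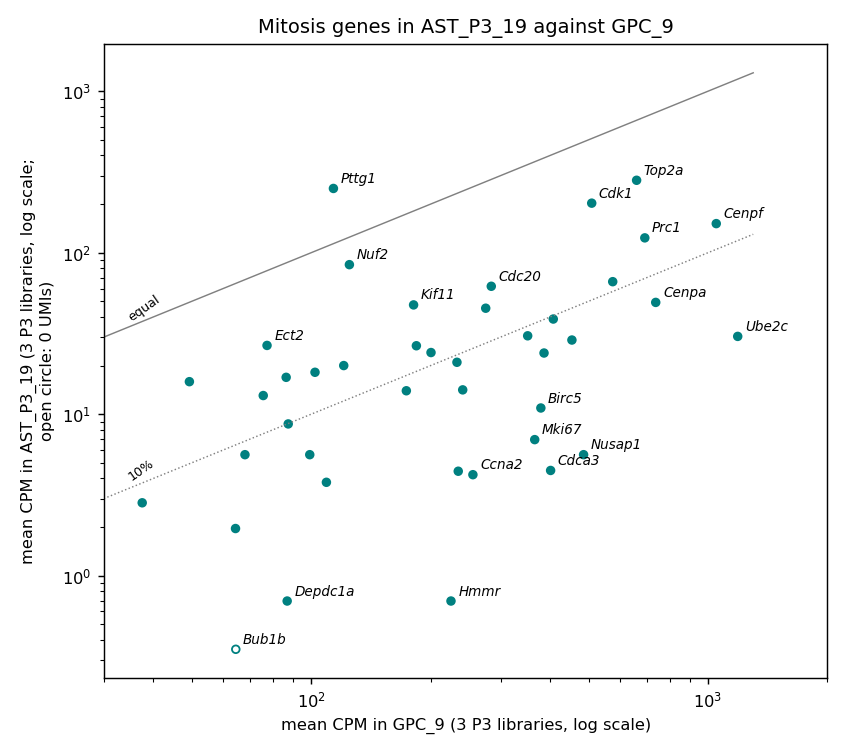
Mean CPM of each member in AST_P3_19 against its mean CPM in GPC_9, both on log scales over 3 P3 libraries, with a solid line at equality, a dotted line at 10%, and an open circle for a member without UMIs. Pttg1 lies above equality (219% of GPC_9), Nuf2, Top2a and Cdk1 between 39.7% and 69.8%, and Mki67, Ccna2 and Hmmr under 2.1%.

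A second small cluster with multiciliated markers, LOW_23 (31 cells at P3 and 14 at 3m, all of the latter from replicate 2), had 3 of these genes in many cells at both ages. Its multiciliated markers summed to 6571 CPM at P3 and 8413 CPM at 3m, with 4 of 5 detected. *Nuf2* had a UMI in 21 of 31 P3 cells and in 13 of 14 cells at 3m, *Kif11* in 7 of 31 and 6 of 14, and *Pttg1* in 30 of 31 and 14 of 14. At 3m the 14 cells held 71 of the 195 *Nuf2* UMIs and 11 of the 17 *Kif11* UMIs of all 3 libraries. *Mki67*, *Top2a*, *Cdk1* and *Ccna2* had no UMI there, which with a floor of 3 UMIs over 166165 allows up to 18.1 CPM.

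Cells with UMIs of several members were also present in other lineages at P3. To compare cells of unequal depth, each cell was thinned to 2000 UMIs, shallower cells were left out, and cells with UMIs of at least 3 members were counted. This share was 98.2% ± 0.371 in GPC_9 and 93.8% ± 1.54 in GPC_8, 41.7% ± 13.9 in AST_P3_19, 23.9% ± 4.27 in END_7, 18.1% ± 2.12 in PER_6, 13.5% ± 5.73 in MIC_16, 12.8% ± 3.71 in AST_P3_3 and 10.1% ± 5.57 in OPC_18. In AST_P3_0 it was 1.26% ± 0.380 and in AST_P3_11 0.264% ± 0.456. The share was low in the clusters taken as background, with 1 of 36 NEU_22 cells at P3 and 0 of 1697 oligodendrocytes at 3m, which allows up to 0.177%. From AST_P3_19 to OPC_18, the libraries of each cluster overlapped those of the next in this order. The share counts cells with these transcripts and does not by itself mark them as dividing, as in AST_P3_19, where most cells with at least 10 members lacked *Mki67*.

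The cells concerned carried markers of their own lineage above those of astroglia. The 191 END_7 cells with at least 10 members had endothelial markers at 4019 CPM and astroglial markers at 132 CPM, the 101 PER_6 cells had mural markers at 12877 CPM and astroglial ones at 318 CPM, and the 10 MIC_16 cells had microglial markers at 3203 CPM and astroglial ones at 591 CPM. The cells of the same clusters with under 3 members had more of their own markers, at 5041, 17737 and 4610 CPM, and astroglial markers at 155, 255 and 269 CPM, so astroglial markers were higher in cells with at least 10 members in PER_6 and MIC_16 and lower in END_7. Cells with at least 10 members were also deeper, with medians of 43191 against 14639 UMIs in END_7, 11088 against 4913 in PER_6 and 9748 against 5330 in MIC_16. GPC_9 had astroglial markers at 2188 CPM. Doublets were not removed, and their part in these values was not tested. In PER_6 the members reached between 11.3% and 68.9% of their GPC_9 level (median 30.1%), and in END_7 the median was 13.3%, with *Pttg1* highest at 47.2%.

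AST_P3_4 had a high summed level, 2553 ± 1318 CPM, that differed between libraries from 1088 to 3642 CPM. Most of its 1034 P3 cells came from replicate 3, where the astroglial cells numbered 3786 with the cluster and 2803 without it. In replicates 1 and 2 they numbered 1985 and 3103 with it, and 1968 and 3069 without it, so few cells gave those levels. AST_P3_4 also had mural markers at 644 CPM and endothelial markers at 121 CPM, the part of which was not tested. AST_P3_3, with 563 ± 70.5 CPM, had S phase genes at 1109 ± 183 CPM, as high as in GPC_9 (1103 ± 148 CPM).

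Between the ages, nearly all members were lower at 3m in astroglial cells. In UMIs summed over the astroglial cells of each library, 41 of the 42 members were called lower at 3m and none higher (edgeR quasi-likelihood test, adjusted p of at most 0.05 over 13530 genes and a log2 fold change of at least 1 in size). Of all genes tested, 16.3% were called lower and 15.8% higher. All 42 members passed the filter on low counts, 17 of them without a UMI at 3m and so through P3 alone. For these 17 the direction was fixed in advance, and their calls are a description. A further 13 had 1 to 3 UMIs over the 3m libraries, so their calls leaned on P3 as well. For 41 members each 3m library was below each P3 library, as it was for 37.7% of all genes. The median log2 fold change of the members was -7.72, or -5.54 with members at 0 set at their bound, and that of all genes was -0.04. A sum over cells does not tell fewer dividing cells from less RNA per cell. Markers of oligodendrocytes moved with age in these sums, with the 5 genes at 4.21 to 5.06 CPM in the P3 libraries and 220 to 563 CPM at 3m (1318 CPM in AST_3m_14 and 134 CPM in AST_3m_5), while astroglial markers were at 3295 to 4151 and 4981 to 5457 CPM, and the part of such RNA in the members' levels was not tested. Adjusted p of the 41 ranged from 4.64e-09 to 0.000107.

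At 3m, 17 members had no UMI at all in 1118 astroglial cells, and with a floor of 3 UMIs over the 3 libraries they were at least 14.9-fold (*Ttk*) to at least 322-fold (*Ube2c*) lower. They spanned every role. *Hmmr* was at least 59.2-fold lower, *Kif11* 56.8-fold, *Aurkb* 51.3-fold, *Kif23* 33.4-fold, *Bub1*, a checkpoint kinase, 30.9-fold and *Ska1* 26.6-fold. A further 13 members had 1 to 3 UMIs at 3m, with ratios of P3 to 3m from 31.8 for *Bub1b* to 828 for *Top2a*, whose 95% counting interval ran from 149 to 32723. The other 12 members had more than 3 UMIs.

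*Cenpa* was among those, with 113, 107 and 115 CPM at P3 and 2.59, 2.17 and 2.72 CPM at 3m (log2 fold change -5.30, SE 0.25, edgeR adjusted p 6.47e-09). *Cdca8* had 125, 106 and 118 CPM at P3 and 0.864, 1.08 and 1.36 CPM at 3m (log2 fold change -6.50, SE 0.29). *Cenpf* fell from 219, 141 and 181 CPM to 1.73, 4.88 and 6.11 CPM. The smallest of the called decreases were those of *Incenp* (log2 fold change -3.69, SE 0.30), *Mad2l1* (-2.96, SE 0.30) and *Nuf2* (-1.31, SE 0.19). *Nuf2* had 35.7, 30.6 and 36.9 CPM at P3 and 12.96, 11.9 and 11.5 CPM at 3m (edgeR adjusted p 0.000107), so the ages did not overlap although the difference was 2.82-fold.

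*Pttg1* differed from all other members in direction. It had 102, 119 and 101 CPM at P3 and 129, 154 and 137 CPM at 3m, each 3m library above each P3 library. Its log2 fold change of 0.58 (SE 0.17, edgeR adjusted p 0.0143) was under the size needed for a call. In the whole preparation, with all barcodes summed, it had 86.5, 109 and 88.0 CPM at P3 and 142, 159 and 136 CPM at 3m (log2 fold change 0.81, SE 0.16, edgeR adjusted p 0.00239), again not called. At 3m it was present across cell types, with 146 ± 10.8 CPM in oligodendrocytes, 195 ± 23.7 CPM in END_17 and 146 ± 13.8 CPM in AST_3m_5. In AST_3m_14, the other astrocyte cluster at 3m, it had 44.0, 147 and 106 CPM, a range that included the levels in AST_P3_0. *Pttg1* made up 635 of the 800 UMIs of members in 3m astroglial cells.

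**Figure D5:**
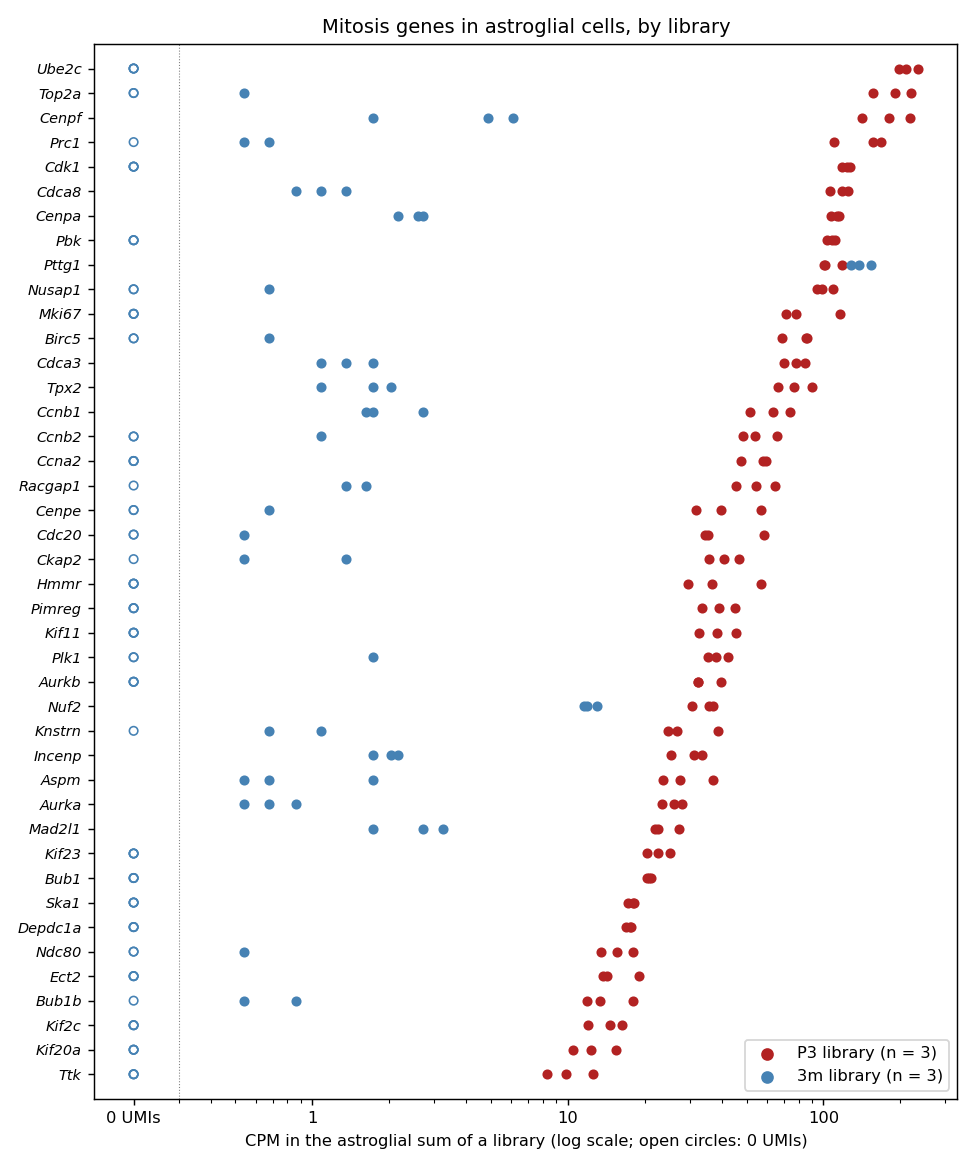
CPM of each member (log scale) in the astroglial sum of each library, red for P3 and blue for 3m, with open circles at the left for libraries without a UMI. Red and blue points are apart for 41 members, all with 3m below, and for Pttg1 the 3m points (129 to 154 CPM) lie above the P3 points (101 to 119 CPM).

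In the whole preparation 41 of the 42 members were called lower at 3m, against 16.1% of 15407 genes. *Aurkb*, *Ska1*, *Depdc1a* and *Kif2c*, a microtubule depolymerase, had no UMI in any 3m barcode. These 4 passed the filter through P3 alone, which fixed their direction. The median log2 fold change of the members was -6.10, and that of all genes 0.00. The cell types in these sums moved with age. Oligodendrocyte markers were at 4.26 to 5.72 CPM in the P3 libraries and 11358 to 22021 CPM at 3m. The part of this shift in the members' levels was not tested.

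Counted as cells, 17.3%, 16.5% and 17.6% of astroglial cells at P3 had at least 3 members after thinning to 2000 UMIs, and 0%, 0.247% and 0% at 3m. These shares did not overlap (17.1% ± 0.597 against 0.0823% ± 0.143, n = 3 libraries each, exact permutation test, two-sided, p = 0.1, the smallest that 3 against 3 allows). At 3m that was 1 of 906 cells, with 212 cells left out as too shallow, and at P3 1328 of 7761, with 1113 left out. Of these 1113, 947 were from P3 replicate 3, which held most cells of AST_P3_4. How many of them belonged to that cluster was not counted. Near the threshold, 360 P3 cells had exactly 2 members and 150 exactly 3, and 22 cells at 3m had exactly 2. No 3m astroglial cell had UMIs of more than 5 members before thinning.

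Outside the progenitor clusters the difference was smaller and less even. With GPC_8, GPC_9 and sub-clusters 6 and 8 left out, a step that lowers P3 alone, the summed level was 280.4, 319 and 492 CPM in the P3 libraries and 161 to 191 CPM at 3m. Of the members, 29 passed the filter on low counts, 8 of them without a UMI at 3m and so through P3 alone, and 13 were not tested. The filter thus favoured members that are high at P3, and the 22 called lower (edgeR, adjusted over 13004 genes, where 13.5% of all genes were) are given as a description. *Pbk* had the lowest adjusted p, with 23.4, 21.6 and 25.7 CPM at P3 and 0 at 3m (edgeR adjusted p 1.49e-06), followed by *Cdca8* at 9.41, 9.90 and 16.7 CPM against 0.864 to 1.36 CPM. Tested members that were not called were *Ccnb1*, *Aurka*, a spindle pole kinase, *Aspm*, *Mad2l1*, *Nuf2*, *Incenp* and *Pttg1*. *Nuf2* had 7.47, 11.4 and 20.1 CPM at P3 and 12.96, 11.9 and 11.5 CPM at 3m, with overlapping libraries. The highest level, in P3 replicate 3, went with AST_P3_4, and without that cluster replicate 3 had 324 CPM and 22 of 29 members were still called. Without P3 replicate 3 the count was 9 of 11 tested, without replicate 1 it was 13 of 15, and without replicate 2 it was 12 of 14, so the number depended on how many members passed the filter. With cells of more than 1000 genes and under 5% mitochondrial UMIs alone, it was 7 of 28. That filter left 12, 137 and 88 cells in 3m replicates 1, 2 and 3, with 50876 UMIs in replicate 1. The summed level without *Pttg1* was then 215 ± 58.5 CPM at P3 and 39.8 ± 17.5 CPM at 3m.

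Microglia, the immune cells of the brain, could be compared in few cells. MIC_16 had 124 cells at P3 with 1331 member UMIs and 60 cells at 3m with 35, of which 22 were *Pttg1*. Its summed level was 2015, 1038 and 1460 CPM at P3 and 178, 99.3 and 131 CPM at 3m. Only 4 members passed the filter, *Top2a*, *Cdk1*, *Ube2c* and *Birc5*, each without a UMI at 3m and so through P3 alone, which fixed their direction. Their calls as lower are therefore a description (edgeR adjusted p 0.000443 to 0.00346), where 3.43% of 2679 genes were called lower and 6.68% higher. Each 3m library was below each P3 library for these 4, as it was for 19.6% of the genes tested. *Cdk1* had 121, 100.2 and 138 CPM at P3 and no UMI at 3m. After thinning, 14 of 105 cells at P3 and 0 of 53 at 3m had at least 3 members, and a count of 0 allows up to 5.66%. The shares did not overlap (13.5% ± 5.73 against 0%, n = 3 libraries each, exact permutation p = 0.1, two-sided).

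The 3m cell with the most members was an oligodendrocyte precursor, a cell type known to divide in adult brain. In OPC_18 (13 cells at 3m), 1 cell of replicate 2 with 6661 UMIs had UMIs of 26 members, 69 in sum, including 15 of *Cenpa*, 5 each of *Ccnb2*, *Tpx2* and *Cdca3*, and 3 of *Mki67*. Another, in replicate 1, had 8 members, and no other annotated 3m cell had more than 6. After thinning, 3 of 12 cells of OPC_18 at 3m had at least 3 members. The cluster at 3m was too small for a comparison between the ages. Of the 29 *Mki67* UMIs in all 3m libraries, 22 came from oligodendrocytes and 5 from OPC_18, and none from astroglial cells.

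Other genes of the mitotic pathway, taken from lists by function, were called lower at 3m in astroglial sums to differing extents, where 16.3% of all genes were, and none of them was called higher. Some had no UMI at 3m and passed the filter through P3 alone, so their direction was fixed in advance and their calls are a description. These were 2 of the kinesins, 5 of the kinetochore and checkpoint genes, 3 of the entry control genes and 3 of the S phase genes below. All 8 of the other mitotic kinesins were called lower, among them *Kif22*, a chromosome arm motor (32.4 ± 3.26 to 0.949 ± 1.11 CPM), *Kif15* and *Kif18a*. Of 30 other kinetochore and checkpoint genes 22 were, with *Spc25*, a partner of Ndc80 and Nuf2, at least 79.1-fold lower from 53.4 ± 3.86 CPM and without a UMI at 3m, and with *Spc24* and *Cenpm* at log2 fold changes of -6.45 and -6.31. Of 13 genes of mitotic entry control 10 were, among them *Cks2* and *Cks1b*, small subunits that bind Cdk1, and the phosphatase gene *Cdc25c* (at least 19.04-fold). All 18 S phase genes were called lower, with *Rrm2*, a subunit of ribonucleotide reductase, falling from 112 ± 30.2 to 1.30 ± 1.15 CPM.

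In each of the remaining lists some genes were called lower and others were not, where 16.3% of all genes were called lower. Here 1 condensin, 1 cohesin, 3 transcription and 1 cytokinesis gene had no UMI at 3m, so their direction was likewise fixed in advance. Of 8 condensin genes 6 were called lower, with *Ncaph* at -6.32 and the ATPases *Smc4* and *Smc2* at -3.51 and -3.23 on the log2 scale. Of 14 cohesin and cohesion genes 5 were, with *Sgo1* and *Sgo2a*, protectors of centromeric cohesion, at -5.88 and -4.58, and *Esco2*, the cohesin acetyltransferase, at -6.77. Of 17 genes of the anaphase-promoting complex and its regulators 6 were, led by its inhibitor *Fbxo5* (-4.35), its enzyme *Ube2s* (-1.47) and its subunit *Anapc5* (-1.47). Of 13 genes for the transcription of mitotic genes 7 were, with *Lin9* at -2.33, *E2f1* at -1.55 and *Rbbp4* at -1.12, and of 9 tested genes of cytokinesis and abscission 5 were, with *Arhgap11a* at -4.55, *Shcbp1* at -4.12 and *Sept9* at -2.82. The list medians ran from -0.80 for the anaphase-promoting complex to -5.10 for the kinesins. In the whole preparation 2 of the cytokinesis genes were called higher, where 18.4% of all genes were.

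Over 44 P3 sums by cluster and library, the member that followed the summed level most closely was *Prc1*, which bundles microtubules of the central spindle (Pearson's r of 0.97 on log2(CPM + 1), the first of 8962 genes). The lowest were *Nuf2* (0.77) and *Pttg1* (0.30, rank 4838). Of genes outside all lists, those most like the summed level were *Ckap2l* (0.96), *Dlgap5* (0.95), *Hmgb2* (0.92), *H2afx* (0.92), *Trip13* (0.91), *Cdkn3* (0.91), *H2afz* (0.89), *Lmnb1* (0.89), *Gas2l3* (0.89) and *Pclaf* (0.88). The summed level includes each member itself, so the ranks of the members among all genes are partly built in. The sums of 1 library share its depth and preparation, so these correlations are a description and carry no p.

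In the GENCODE annotation 9 members overlapped a gene on the opposite strand and *Top2a* a small nucleolar RNA on its own strand, and *Ccnb1* and *Ccnb2* have processed pseudogenes, so their counts may include or lack reads of those genes. The labels give a replicate number, the same numbers at both ages, but no preparation or sequencing batch. A batch that went with the number was covered by the replicate block, and one that went with the age cannot be told apart from it.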

How the data were processed

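Striatal cells enriched for ACSA2 were profiled with 10x 3′ chemistry in 3 P3 and 3 3m libraries, grouped by the sample labels. The deposited counts are UMI counts per gene and barcode, which the authors made with Cell Ranger on mm10 and merged without normalization. The pseudotime score and its bin, the cluster and the sub-cluster of each cell were deposited by the authors, who used Seurat and Slingshot on barcodes that had more than 500 genes and a mitochondrial share below 10%. The submitters' processing notes name Seurat 3.1.1. The 42 members and all other lists were chosen with earlier results of these data known.

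UMIs were summed per library over the cells of interest and tested with edgeR 4.0.16 (R 4.3.3, quasi-likelihood test, TMM, filterByExpr, Benjamini-Hochberg over all genes tested, two-sided, 3m over P3). Calls required an adjusted p no higher than 0.05 together with a log2 fold change of at least 1 in size. DESeq2 1.42.0 was an alternative. Replicates are independent preparations, as the paper states, and p-values measure the spread between them. Scripts were tested on simulated data. Doublets were not removed, as in the study. Floors and intervals cover counting error only. At 3m, astroglial sums held from 1157485 to 1843998 UMIs, so low genes were measured less precisely than at P3 (22327104 to 30617140.0 UMIs).

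All members could be named. From each other list up to 3 genes were named, those with the lowest adjusted p and at least 10 CPM in the higher age, and outside the lists the 10 genes whose levels followed the summed members most closely over clusters. Same-numbered libraries of the ages correlated in their deviations at 0.250, 0.114 and 0.0619 in astroglial sums, so the numbers were not taken to pair them. Promoter windows are from RefSeq (GRCm38.p6), and overlaps from GENCODE M21.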

Additional observations from a re-analysis of the deposited data

How the results depend on the processing

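With astroglial and whole-preparation sums, 41 members were called lower at 3m under every alternative run, among them other scalings, no filter, DESeq2, thinned sums, a replicate block (41 in both) and each library left out. The direction was fixed throughout for members without a UMI at 3m, 17 in astroglial and 4 in whole-preparation sums. A further 13 had 1 to 3 UMIs at 3m in astroglial sums, so the unchanged count says little about these members. Under an adjusted p alone, 1 member (Pttg1) was called higher in astroglial, in whole-preparation and in progenitor-free sums. In the progenitor-free sums, the 22 of 29 tested members became 31 of 42 with no filter, 25 with DESeq2, 24 without scaling, 22 with the replicate block, 5 of 7 with sums thinned to the smallest, 7 of 28 with the stricter cell filter, and 21 of 28 without AST_P3_19 (chosen after seeing the data, as was leaving out AST_P3_4), with 9 to 22 when a library was left out. There Nuf2 turned to -0.11 without scaling and -0.28 with the stricter filter, from 0.13, and ranged from -0.13 to 0.55 when a library was left out. Incenp turned to 0.36 with the stricter filter, from -0.83, and Ccnb1 to 0.13 without AST_P3_4, from -0.61. None of these 3 was called. The CPM that the filter on low counts demands rises as library totals fall, so fewer members were tested in thinned sums and without a P3 library, and these counts cover only members high enough at P3 to be tested. In microglia the 4 of 4 became 19 of 42 with no filter and 7 with DESeq2, was 4 with the replicate block, and ran from 1 to 7 when a library was left out. Thinned microglial sums left no member to test, so they gave no value. The difference in share of astroglial cells, 17.1 percentage points, was 19.02 with at least 2 members, 13.8 with at least 5, 14.6 at 1000 UMIs, 21.6 at 4000 and 28.8 unthinned, and 16.8 to 17.4 when a library was left out. In microglia the 13.5 points were 19.3 with at least 2 members, 22.3 at 4000 UMIs and 22.4 unthinned, and 10.2 to 15.6 when a library was left out, where the smallest p possible is 0.2. Same-numbered libraries deviated together unevenly (0.532, 0.466 and 0.0840 in the whole preparation), and the block changed no count of calls. The 3m sums were the shallower, so low members there are bounded rather than measured.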

Other observations

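Barcodes that the authors' filter left out were also summed. At P3 they had 996 ± 564 CPM of the members in sum (n = 3 libraries), with haemoglobin and other red cell markers at 65457 CPM. At 3m they had 167 ± 16.8 CPM, of which 49.6 ± 20.9 CPM was not Pttg1. They held 8 of the 10 Ube2c UMIs and 7 of the 9 Ccna2 UMIs of the 3m libraries, and 24.0% of the 3m UMIs of all genes. Of the 10 Ube2c UMIs, 8 were in 3m replicate 3. A left-out barcode of that replicate had 13194 UMIs in only 140 genes and 11 UMIs of 2 members. Whether it held the Ube2c UMIs was not examined. Cluster LOW_20, with red cell markers at 3382 CPM and neuronal markers at 871 CPM, had the lowest summed level of the clusters with 3 libraries, 44.2 ± 6.43 CPM.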
